A study of Homo sapiens with 6 samples.

Results

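Immune checkpoint and complement shield genes were followed in HGC-27 cells, a cell line from an undifferentiated human gastric cancer. The 10 genes are CD274, PDCD1LG2, CD276, ICOSLG, LGALS9, CD46, CD47, CD55, CD59 and PVR, taken by name for their known roles in shielding cells from T cells, phagocytes and complement. The rule uses no measured value, but the genes were proposed with earlier results of these data known. They are 10 of the 58825 genes in the count table. RNA was sequenced in 6 libraries, 3 of cells labelled GC0643 overexpression and 3 of cells labelled vector control. Both groups are HGC-27 cells grown in RPMI-1640 medium with fetal bovine serum, and the methods of the study describe stable lines made by retroviral infection and selected with puromycin. GC0643 is a gene that the study describes outside the reference genome. Its counts were not analysed here, so the values below do not check the labels. The study names at least 3 independent repeats for its in vitro work as a whole and does not say what was repeated between the 3 libraries of a group, so the p-values measure only the spread between these libraries, which may be technical.

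Immune checkpoints are pairs of surface proteins that raise or lower the response of a lymphocyte to the cell it touches. CD274 (PD-L1) and PDCD1LG2 (PD-L2) bind PD-1 on T cells and restrain them, whereas ICOSLG binds ICOS and costimulates them. CD47 binds SIRPα on macrophages and restrains phagocytosis. CD46, CD55 and CD59 sit on the surface of most cells and stop complement at successive steps, from the convertases that cleave C3 to the membrane attack complex. Tumour cells carry many of these proteins, and some of the genes are known to respond to interferon.

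Total counts were 20376722 to 24069166 per library, and 19528 genes passed edgeR's filter on low counts, which asks for the equivalent of 10 reads in at least 3 libraries. Values are given as raw read counts and as CPM, counts scaled to a common library total after TMM normalization. Fold changes are log2 of GC0643 overexpression over vector control and come from the quasi-likelihood test of edgeR, fitted and adjusted over every gene that passed the filter. A gene is called higher or lower here where its unadjusted p was under 0.05. No gene passed an adjusted p of 0.05 in this test, 16 passed in edgeR's likelihood ratio test, 1 in DESeq2 and 0 in limma voom. On the unadjusted p, 2553 genes (13.1%) were called higher in the GC0643 libraries and 1028 (5.26%) lower. Leaving out replicate 2 of the vector control brought the number past the adjusted p to 3813 in edgeR. Across genes the fold change followed the GC content of the transcript (Spearman's rho −0.67 over 19401 genes, which share the same libraries and are not independent), so each member is also given after a loess correction of every library for GC content. Of the cell type markers, 4 of 20 leukocyte markers were counted often enough to be tested, with CD3D, CD3E, CD3G, CD2, MS4A1 and HLA-DRA at 0 in all libraries, and the summed level of the list was 9.39 to 11.0 CPM in the GC0643 libraries and 10.4 to 11.1 CPM in the vector libraries. Of 10 endothelial markers 1 was tested (summed levels 4.63 to 5.19 and 4.24 to 6.65 CPM). Of 21 gastric epithelial markers 4 were tested (summed levels 60.7 to 70.3 and 63.5 to 84.0 CPM), namely GATA6 (26.0 CPM with GC0643 and 28.0 CPM with vector), GATA4 (24.4 and 26.9), CDX2 (6.28 and 7.94) and KRT8 (6.22 and 5.83), none of them called. The defining genes EPCAM, CDH1, KRT18 and KRT19 stayed under 1 CPM on average in both groups. All 17 mesenchymal markers were tested (summed levels 8346 to 9316 and 8455 to 9052 CPM), led by VIM at 3218 CPM in the GC0643 libraries and 3144 CPM in the vector libraries. Of these markers 6 were called higher in the GC0643 libraries and none lower, beside 13.1% and 5.26% of all genes tested. LUM had the largest log2 fold change, 0.78. After the GC correction 5 of the 17 markers were called higher and none lower, beside 2.91% and 3.22% of all genes tested. LUM was then at 0.46 and COL1A2 at 0.57. The part of these markers in the values below was not tested. In bulk RNA, fewer cells with a transcript and less of it per cell cannot be told apart.

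Of the 10 genes, 6 were expressed at a clear level and 4 lay at the edge of detection, each by the reads counted at its own locus. Levels between genes were compared as RPKM, CPM divided by the length of the canonical transcript in kilobases, over all 6 libraries. CD276 (B7-H3), a B7 family protein with no agreed receptor, was at 41.5 ± 5.38 RPKM (SD, n = 6). It was the highest of the 10 in every library, and its lowest library, at 35.1 RPKM, lay above the highest library of CD46, at 18.7 RPKM. CD46 followed at 14.4 ± 3.27 RPKM, PVR at 10.8 ± 1.23, CD47 at 8.37 ± 1.55, CD55 at 7.12 ± 0.582 and CD59 at 5.24 ± 0.812 RPKM. Between neighbours in this order from CD46 to CD55 the ranges over libraries overlapped. CD55 and CD59 did not overlap, since the lowest CD55 library was at 6.29 RPKM and the highest CD59 library at 6.18. LGALS9, ICOSLG and CD274 were lower by more than an order of magnitude, at 0.223 ± 0.123, 0.182 ± 0.0469 and 0.162 ± 0.102 RPKM, and their ranges overlapped one another. PDCD1LG2 was at 0.0189 ± 0.0244 RPKM. The level of ICOSLG leaves out reads assigned to a copy of it in the assembly, described further on. That copy alone was at 1.14 RPKM, so the low place of ICOSLG in this order holds for its own locus only.

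**Figure D1:**
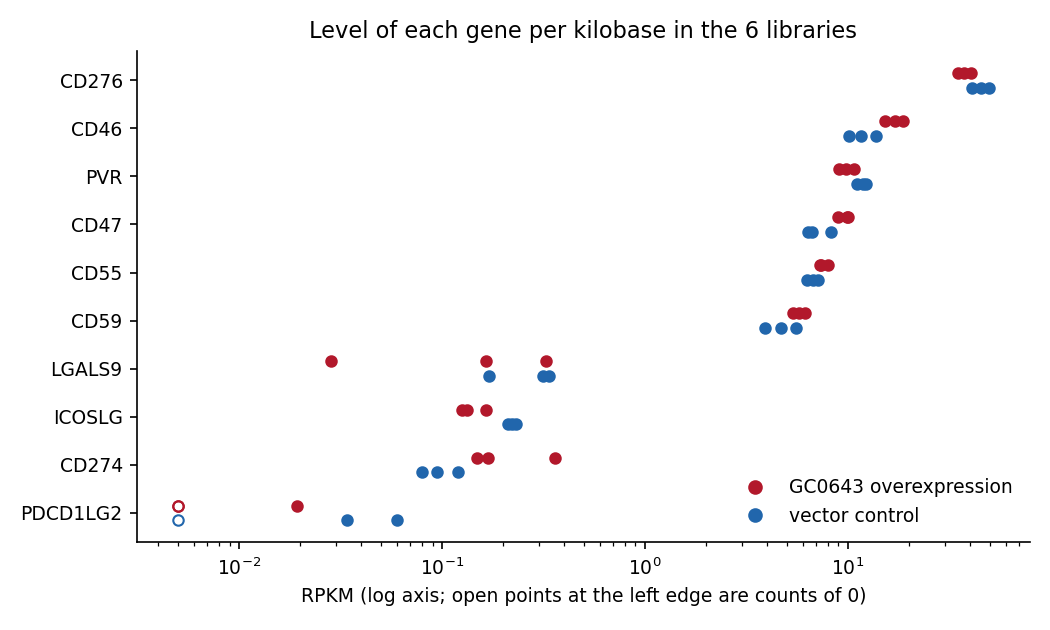
RPKM of each gene in each of the 6 libraries, on a log axis, with libraries labelled GC0643 overexpression in red and vector control in blue. CD276 lies above the other genes in every library, and LGALS9, ICOSLG, CD274 and PDCD1LG2 lie under 0.4 RPKM.

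In the comparison of GC0643 overexpression with vector control, CD274, CD46 and CD47 were called higher and CD276 and ICOSLG lower, that is 3 and 2 of the 9 genes tested, against 13.1% and 5.26% of all genes tested. None passed the adjusted p. PDCD1LG2 did not pass the filter on low counts. CD274 passed it through the GC0643 libraries alone, since all 3 of these and none of the vector libraries reached the level the filter asks for, so its place among the higher genes is no support for a difference. At the thresholds of the study, a fold change over 1.5 with the same p, CD274 was higher and ICOSLG lower, where 1.60% of all genes tested were higher and 0.871% lower. The 3 libraries of each group did not overlap in CPM for 7 of the 10 genes. CD274, CD46, CD47 and CD55 were the 4 higher ones, and CD276, ICOSLG and PVR the 3 lower ones, beside 11.8% higher and 10.5% lower among all genes tested. With the GC correction 1 gene, CD46, was called higher and none lower, and the shares of all genes were then 2.91% and 3.22%. Without vector replicate 2, and with no GC correction, 4 of the 9 members tested were called higher and 2 lower, beside 22.8% and 14.2% of all genes tested in that setting. CD46, CD47, CD59 and CD276 then passed the adjusted p, as did 19.1% of all genes.

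**Figure D2:**
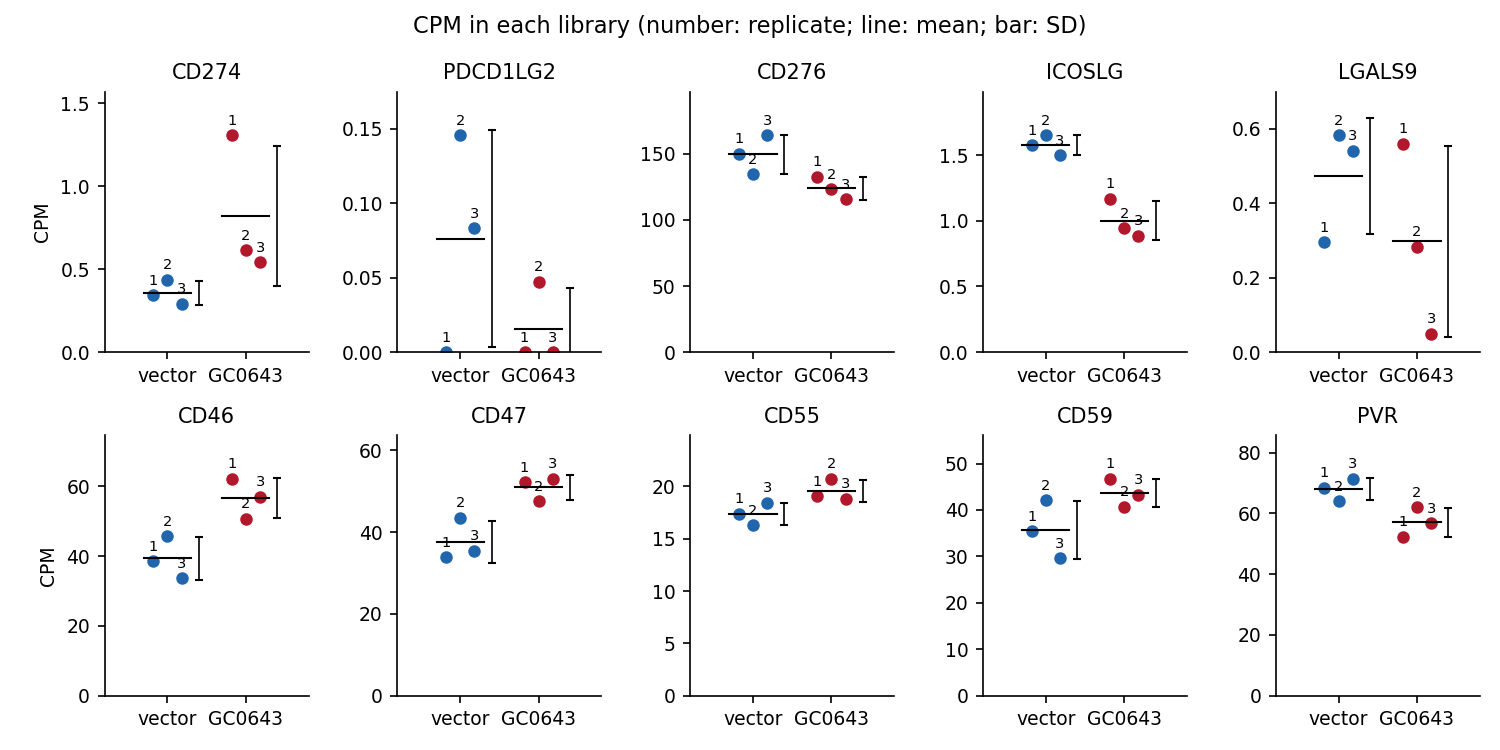
CPM of the 10 genes in each library, with the replicate number above each point, the group mean as a line and the SD as a bar; each panel has its own vertical axis from 0. The groups do not overlap for 7 genes, and vector control replicate 2 is the vector library nearest to the GC0643 libraries for CD46, CD47, CD59, CD276 and PVR.

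CD46 is a cofactor with which factor I cleaves C3b and C4b on the cell surface, and it lies at chr1:207752037-207795513 on the plus strand (GRCh38). It was counted 1332, 1074 and 1156 times in GC0643 replicates 1 to 3 and 784, 943 and 809 times in vector replicates 1 to 3. These are 62.1, 50.7 and 57.0 CPM against 38.6, 45.8 and 33.6 CPM. All GC0643 libraries were above all vector libraries, with the smallest gap between GC0643 replicate 2 and vector replicate 2. The mean was 56.6 ± 5.74 CPM with GC0643 and 39.3 ± 6.09 CPM with vector (SD, n = 3), and the log2 fold change was 0.53 (SE 0.14), a factor of 1.44, with an adjusted p of 0.26 in edgeR. It was positive under every alternative tried, and it held the smallest p of the 10 genes. Without vector control replicate 2 it was 0.65 and the edgeR adjusted p was 0.011. Corrected for GC content it was 0.20 (SE 0.09, adjusted p = 0.79), still called, and with 1 library left out as well it lay between 0.17 and 0.24 and was called in 1 of 6 cases.

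CD55, or decay-accelerating factor, takes apart the C3 and C5 convertases and is held in the membrane by a GPI anchor. It lies on the same chromosome arm as CD46, at chr1:207321519-207386804 on the plus strand. The GC0643 libraries had 408, 439 and 382 counts, or 19.0, 20.7 and 18.8 CPM, and the vector libraries had 353, 336 and 443 counts, or 17.4, 16.3 and 18.4 CPM. The groups did not overlap, but the highest vector library was within 0.4 CPM of the lowest GC0643 library. The mean was 19.5 ± 1.03 against 17.4 ± 1.06 CPM (SD, n = 3). The log2 fold change of 0.17 (SE 0.14, adjusted p = 0.48) was not called, and after the GC correction it was −0.15 (SE 0.15, adjusted p = 0.85), of the opposite sign.

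CD59, also held by a GPI anchor, keeps C9 from completing the membrane attack complex, and lies at chr11:33703010-33736479 on the minus strand. It had 1001, 863 and 878 counts in the GC0643 libraries and 718, 867 and 713 in the vector libraries. As CPM these were 46.7, 40.7 and 43.3 against 35.4, 42.1 and 29.6. The groups overlapped, because vector replicate 2 lay above GC0643 replicate 2. The mean was 43.6 ± 3.00 against 35.7 ± 6.22 CPM (SD, n = 3), and the fitted log2 difference of 0.29 (SE 0.15, adjusted p = 0.29) was not called. Without vector replicate 2 it was 0.43 with an adjusted p of 0.037 in edgeR. After the GC correction with all libraries it was 0.12 (SE 0.10, adjusted p = 0.83). With that correction and 1 library left out it lay between 0.05 and 0.20 and was called in 0 of 6 cases.

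CD47 lies at chr3:108043091-108091862 on the minus strand. Its counts were 1119, 1008 and 1076 in the GC0643 libraries and 688, 898 and 852 in the vector libraries, or 52.2, 47.6 and 53.1 CPM against 33.9, 43.6 and 35.4 CPM. The groups did not overlap, and vector replicate 2 was again the vector library closest to the other group. The mean was 50.9 ± 2.95 CPM with GC0643 and 37.6 ± 5.20 CPM with vector (SD, n = 3). The log2 fold change was 0.44 (SE 0.14), a factor of 1.35, with an adjusted p of 0.26 in edgeR. Without vector replicate 2 it was 0.56 and the adjusted p 0.012 in edgeR, whereas without vector replicate 1 it was 0.36 and no longer called. The GC correction left 0.10 (SE 0.08, adjusted p = 0.83), which was not called. With 1 library left out as well it lay between 0.08 and 0.14 and was called in 0 of 6 cases.

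CD274 encodes PD-L1 and lies at chr9:5450503-5470566 on the plus strand, upstream of PDCD1LG2. It was counted 28, 13 and 11 times in the GC0643 libraries and 7, 9 and 7 times in the vector libraries. This corresponds to 1.31, 0.613 and 0.542 CPM against 0.345, 0.437 and 0.291 CPM. The groups did not overlap, and GC0643 replicate 1 had 28 reads where the next library had 13. The mean was 0.821 ± 0.422 CPM with GC0643 and 0.358 ± 0.0736 CPM with vector (SD, n = 3), a log2 fold change of 1.20 (SE 0.47) or a factor of 2.30, with an adjusted p of 0.26 in edgeR. It was the largest fold change of the 9 genes tested and the one with the second largest error. Without GC0643 replicate 1 it was 0.69 (adjusted p = 0.52), and with the GC correction 0.92 (SE 0.45, adjusted p = 0.79), and neither was called. It was not called by DESeq2 (adjusted p = 0.56), nor without vector replicate 1 or 3. PDCD1LG2 (chr9:5510531-5571282, plus strand) was counted 0, 1 and 0 times in the GC0643 libraries and 0, 3 and 2 times in the vector libraries, which allows no comparison at this depth.

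The 3 genes called higher in these data are given by the bases before their transcription start. The motif marked in each was picked from those found, and whether its factors act on these genes was not tested. CD274 passed the filter on low counts through the GC0643 libraries alone, so its call is no support for a difference. Whether the motifs of CD274 bear on its level was not tested. The sequences are RefSeq promoter windows of GRCh38.p14, without the bases that GENCODE version 44 places in an exon of the gene. Start here means the RefSeq start, which can differ from that of GENCODE. The CD47 stretch lies inside the span that GENCODE gives the gene, as do the windows of LGALS9, ICOSLG and CD276. Capitals mark the motif named before each sequence.
CD274, chr9:5450292-5450502, plus strand, interferon response element core, made of paired GAAA runs: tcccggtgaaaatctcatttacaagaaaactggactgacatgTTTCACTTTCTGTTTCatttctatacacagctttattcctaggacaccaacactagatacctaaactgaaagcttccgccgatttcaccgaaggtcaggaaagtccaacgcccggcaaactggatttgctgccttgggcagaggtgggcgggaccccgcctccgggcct
CD46, chr1:207751788-207752036, plus strand, CCAAT box CCAAT: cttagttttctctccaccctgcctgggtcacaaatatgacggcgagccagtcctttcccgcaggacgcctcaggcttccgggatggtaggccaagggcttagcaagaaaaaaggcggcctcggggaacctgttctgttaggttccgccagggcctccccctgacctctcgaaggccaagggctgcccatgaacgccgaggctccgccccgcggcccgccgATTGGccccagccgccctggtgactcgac
CD47, chr3:108091032-108091281, minus strand, GC box GGGCGG: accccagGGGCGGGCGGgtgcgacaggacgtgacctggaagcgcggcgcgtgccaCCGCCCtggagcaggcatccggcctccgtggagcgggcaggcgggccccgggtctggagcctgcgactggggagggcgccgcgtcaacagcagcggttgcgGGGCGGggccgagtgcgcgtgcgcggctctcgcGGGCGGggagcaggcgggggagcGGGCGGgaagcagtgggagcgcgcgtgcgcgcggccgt
Motifs were searched on both strands in windows of 250 bases before to 50 bases after the start. The CD274 window held the interferon response element core at 2 overlapping positions, 208 and 202 bases before the start. This core, bound by IRF factors, occurred in 3.57% of 35116 windows of all genes. The same window held a gamma-activated site, TTCNNNGAA, bound by STAT factors, 125 bases before the start (7.66% of all windows). The first CD46 window held a CCAAT box 30 bases before the start (34.6% of windows) and no interferon core. The CD47 window held the GC box at 6 positions (44.95% of windows) and no interferon core. It also held the hypoxia response core, ACGTG, 223 bases before the start (21.4% of windows). Of the 7 motifs searched, the GC box, a common one, was the only one found in the windows of both CD46 and CD47. Among the other members, the LGALS9 window held the interferon core 9 bases before the start. Of the 4 CD59 windows, 2 that overlap held the same gamma-activated site. Neither gene was called. A match says only that the letters are there, and no binding was measured.

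CD276 lies at chr15:73683966-73714514 on the plus strand. It had 2846, 2611 and 2346 counts in the GC0643 libraries and 3048, 2773 and 3944 in the vector libraries, or 133, 123 and 116 CPM against 150.1, 135 and 164 CPM. The groups did not overlap, but GC0643 replicate 1 and vector replicate 2 lay close together. The mean was 124 ± 8.58 against 149.6 ± 14.7 CPM (SD, n = 3), and the log2 fold change −0.27 (SE 0.12, adjusted p = 0.27). Without vector replicate 2 it was −0.34 with an adjusted p of 0.049 in edgeR, and it was not called without GC0643 replicate 2, without GC0643 replicate 3, without vector replicate 1 and without vector replicate 3. Correcting for GC content gave −0.08 (SE 0.08, adjusted p = 0.85), not called. With 1 library left out as well it lay between −0.14 and −0.05 and was called in 0 of 6 cases.

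PVR (CD155) binds TIGIT and CD96, which restrain natural killer and T cells, and CD226, which activates them, and lies at chr19:44643798-44666162 on the plus strand. The GC0643 libraries had 1123, 1315 and 1153 counts, or 52.4, 62.1 and 56.8 CPM, and the vector libraries had 1391, 1320 and 1717 counts, or 68.5, 64.1 and 71.4 CPM. The groups did not overlap, with replicate 2 of each group facing the other. The mean was 57.1 ± 4.84 against 68.0 ± 3.70 CPM (SD, n = 3), and the log2 fold change −0.25 (SE 0.12, adjusted p = 0.28), not called. Leaving out replicate 2 of either group brought it under the unadjusted threshold, at −0.33 without GC0643 replicate 2 and −0.29 without vector replicate 2. Over all 23 alternatives it lay between −0.40 and −0.13 and was called in 5. It was −0.19 (SE 0.09, adjusted p = 0.79) with the GC correction. It is the member whose fold change moved least with that correction.

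LGALS9 encodes galectin-9, a secreted lectin that binds TIM-3 (HAVCR2), and lies at chr17:27629798-27649560 on the plus strand. It was counted 12, 6 and 1 times in the GC0643 libraries and 6, 12 and 13 times in the vector libraries, or 0.560, 0.283 and 0.0493 CPM against 0.296, 0.582 and 0.541 CPM. The groups overlapped and a single GC0643 library held 1 read. The log2 fold change was −0.65 (SE 0.61, adjusted p = 0.53) with all libraries, −1.47 without GC0643 replicate 1 and −0.17 without GC0643 replicate 3, and it was not called under any of these. LGALS9 has 2 paralogs close in sequence, LGALS9B and LGALS9C, whose transcripts align to it at 95.9% identity. LGALS9C had no reads. LGALS9B had 2 reads in GC0643 replicate 1 and none in any other library, a mean of 0.0311 CPM with GC0643. With the paralogs' reads added the log2 fold change was −0.51 (SE 0.62, adjusted p = 0.63).

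ICOSLG (chr21:44215382-44241446, minus strand) was counted 25, 20 and 18 times in the GC0643 libraries and 32, 34 and 36 times in the vector libraries. These are 1.17, 0.944 and 0.888 CPM against 1.58, 1.65 and 1.5 CPM, with no overlap. The mean was 0.999 ± 0.147 against 1.57 ± 0.0764 CPM (SD, n = 3) and the log2 fold change was −0.65 (SE 0.30, adjusted p = 0.27 in edgeR). It was called with all libraries and without GC0643 replicate 1, but not without any of the other 5 libraries, nor with the GC correction (−0.48). These reads are the smaller part of those that match ICOSLG. The assembly GRCh38 also holds ENSG00000277117 (chr21:5022531-5036771, plus strand), which GENCODE version 44 types as an artifact, a false duplication of the ICOSLG locus, and which has its own row in the count table. The copy's transcript of 3237 bases aligned to the ICOSLG canonical transcript of 7078 bases over 3231 bases at 99.4% identity. The first 2095 bases of ICOSLG were identical in the copy, and these include the whole coding sequence of 906 bases. Beyond them, counted from the first base of the ICOSLG transcript, 17 bases from position 2096 are missing in the copy, the substitutions A2531G and G2750A separate the sequences, and the last 3847 bases of ICOSLG have no counterpart in the copy's transcript. The first 120 bases of the longest coding segment show that a read lying within the protein-coding part cannot be assigned by its letters to one locus or the other.
ICOSLG, chr21:44237098-44237217, minus strand: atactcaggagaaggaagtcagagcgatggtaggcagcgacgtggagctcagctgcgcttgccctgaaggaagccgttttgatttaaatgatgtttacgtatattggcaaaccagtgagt
ENSG00000277117, chr21:5026280-5026399, plus strand: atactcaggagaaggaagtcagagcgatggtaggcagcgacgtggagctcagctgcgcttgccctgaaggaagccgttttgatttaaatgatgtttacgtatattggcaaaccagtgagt

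The copy was counted 74, 82 and 98 times in the GC0643 libraries and 75, 47 and 96 times in the vector libraries. The copy thus took most of the reads in every library. Its share of the summed reads was 74.7% (95% exact binomial interval 65.02 to 82.9%), 80.4% (71.4 to 87.6%) and 84.5% (76.6 to 90.5%) in GC0643 replicates 1 to 3. In vector replicates 1 to 3 it was 70.1% (60.5 to 78.6%), 58.0% (46.5 to 68.9%) and 72.7% (64.3 to 80.1%). These intervals cover counting error only. The shares did not overlap between groups, with means of 79.9 ± 4.89% and 66.9 ± 7.84% (SD, n = 3). An exact two-sided permutation test gave p = 0.1, the smallest that 3 against 3 libraries allow. Other genes with an artificial copy in GENCODE are given where the summed reads were 37 or more in every library. The shares of TRAPPC10 did not overlap either, at 1.64 to 6.49% with GC0643 and 0.959 to 1.58% with vector. Those of U2AF1 (17.5 to 65.6% and 60.4 to 77.5%), PWP2, SIK1 and GATD3 overlapped. Summed over both loci, ICOSLG was at 5.05 ± 0.587 CPM with GC0643 and 4.90 ± 0.844 CPM with vector (SD, n = 3). The log2 fold change of the sum was 0.04 (SE 0.20, adjusted p = 0.92), and 0.23 (SE 0.17, adjusted p = 0.81) with the GC correction. The lower count at the ICOSLG locus was therefore not seen in the reads of both loci together. For tumour RNA counted with the same tool version, the study's methods describe counting of uniquely mapped reads. Whether this held for these libraries, and how the reads were divided between the loci, is not stated.

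**Figure D3:**
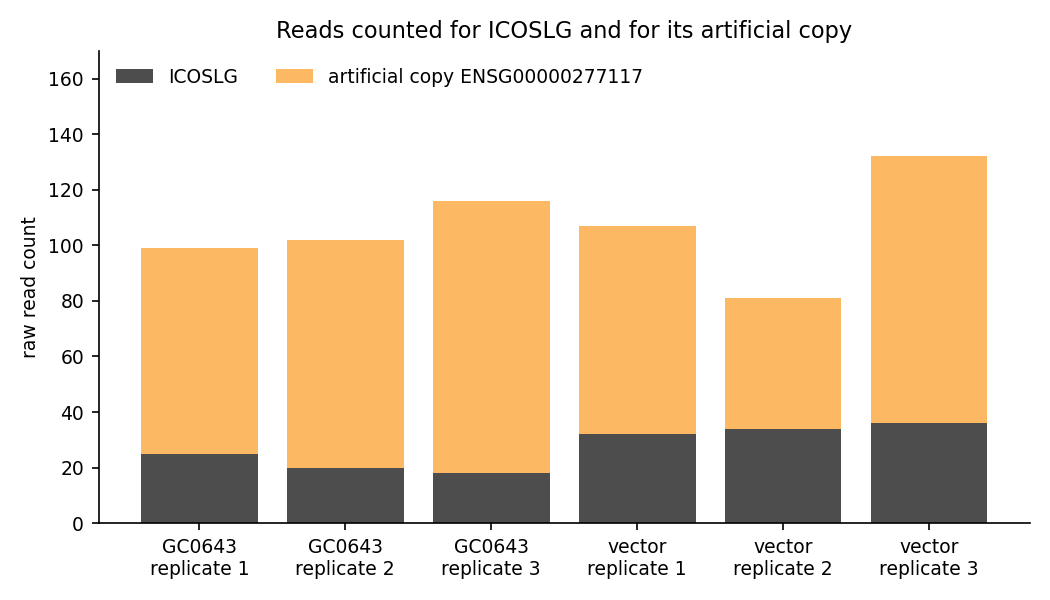
Raw read counts at ICOSLG (dark) and at its artificial copy ENSG00000277117 (orange), stacked, in each of the 6 libraries. The copy holds 58.0 to 84.5% of the summed reads, and the stacked totals of the 2 groups overlap although the dark parts do not.

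The direction of the 9 tested genes followed the GC content of their canonical transcripts. CD47 (37.1% GC), CD46 (38.2%), CD55 (39.2%), CD274 (40.7%) and CD59 (45.2%) had positive log2 fold changes. PVR (52.1%), LGALS9 (58.7%), ICOSLG (59.0%) and CD276 (60.0%) had negative ones. ICOSLG is taken here by the reads of its own locus, and summed with its copy it was at 0.04. LGALS9 had an SE of 0.61, and CD274 passed the filter through the GC0643 libraries alone. Among all genes tested, 87.2% of the 7420 under 46% GC had a positive log2 fold change and 82.9% of the 8067 over 52% GC had a negative one, with both limits set after the members had been seen. The median of genes between 35 and 40% GC was 0.35 and that of genes between 60 and 65% GC was −0.22. CD46 lay 0.20 above the level fitted for its GC content, by the corrected value given above, and CD55 lay below it. In single libraries, genes under 46% GC had a median log2 deviation from the mean of all libraries of 0.20, 0.07 and 0.19 in GC0643 replicates 1 to 3, and of −0.20, 0.08 and −0.30 in vector replicates 1 to 3. Vector replicate 2 lay with the GC0643 libraries in this measure. It lay within their range for CD59, and for CD46 and CD47 it was below all of them but was the nearest vector library. Whether the relation to GC content comes from the libraries or from the cells was not tested.

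**Figure D4:**
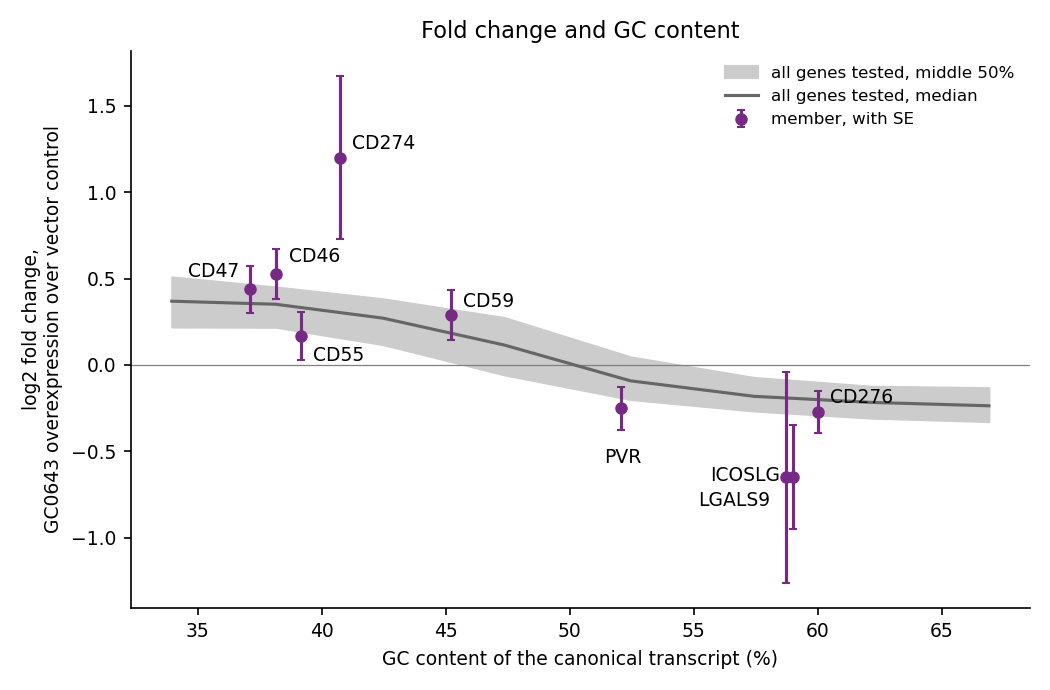
Log2 fold change of the 9 tested genes, with SE, against the GC content of the canonical transcript in percent. ICOSLG is shown by the reads of its own locus, without those of its copy. The line is the median and the grey band the middle 50% of all genes tested, in bins of GC content; most members lie on or near the band, with CD274 above it and ICOSLG and LGALS9 below it with wide errors.

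The difference in base composition is visible in the coding sequence itself. The first 120 bases of the longest coding segment are 37.5% GC in CD46, 35% in CD47 and 67.5% in CD276, here from GRCh38.
CD46, chr1:207761249-207761368, plus strand: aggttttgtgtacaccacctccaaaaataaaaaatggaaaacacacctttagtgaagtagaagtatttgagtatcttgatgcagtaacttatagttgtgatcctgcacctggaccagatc
CD47, chr3:108080225-108080344, minus strand: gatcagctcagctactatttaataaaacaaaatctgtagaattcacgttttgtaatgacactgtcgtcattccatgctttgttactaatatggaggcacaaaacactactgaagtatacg
CD276, chr15:73703659-73703778, plus strand: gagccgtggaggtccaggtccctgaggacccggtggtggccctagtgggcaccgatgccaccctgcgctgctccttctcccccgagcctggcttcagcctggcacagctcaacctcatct
Over the whole coding sequence the GC content was 42.4% in CD46, 39.1% in CD47 and 63.9% in CD276, and outside it 35.95%, 36.7% and 56.3%. The promoter windows had another order, since the window of CD47 was 79.0% GC and the first windows of CD276 and CD46 were 80.3% and 67.0%.

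**Figure D5:**
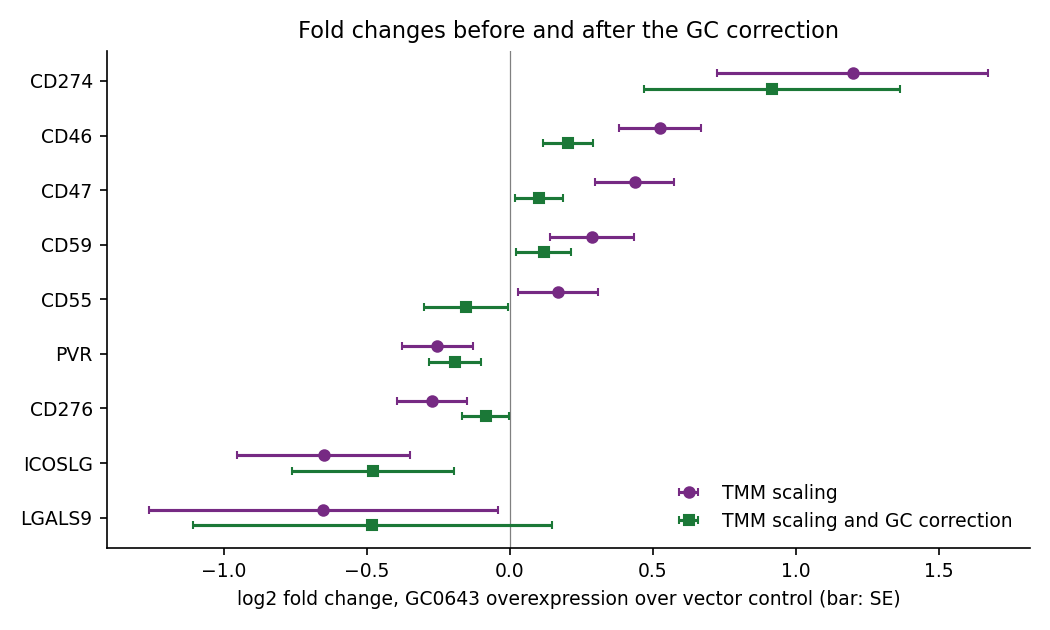
Log2 fold change with SE of the 9 tested genes before (circles) and after (squares) the correction of each library for GC content. CD46 and CD47 move from 0.53 and 0.44 to 0.20 and 0.10, CD276 from −0.27 to −0.08, CD55 changes sign, and CD274 moves from 1.20 to 0.92 with an SE of 0.45.

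CD46 and CD47 had the most similar profiles of any pair of members, with a root mean square difference of 0.10 in log2 CPM over the 6 libraries after centring. CD276 and PVR were the next pair, at 0.12. Among all genes tested the gene closest to CD46 was CHML (0.039), the gene closest to CD47 was KIAA1143 (0.033), and that closest to CD59 was PPP1R15B (0.018). CD55 was nearest to PAK1 (0.041), CD276 to JMJD7-PLA2G4B (0.019), PVR to LMAN2 (0.013) and ICOSLG to TFAP2C (0.077). CD274 and LGALS9, with few reads, had no close match (0.18 to ERVK9-11 and 0.26 to ENSG00000255089). With 6 libraries in 2 groups, such likeness describes these libraries only.

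The exons of 4 members, PVR, CD59, LGALS9 and CD46, overlap those of another annotated gene, and the strand setting of the counting is not stated for these libraries. The options that the study gives for its tumour RNA set no strand and let a read count for every gene it overlaps. PVR shares 2028 exon bases with ENSG00000279095 on its own strand, which had 4.17 CPM in the GC0643 and 4.06 CPM in the vector libraries, and 121 with CEACAM19. CD59 shares 629 bases with ENSG00000284969, a protein-coding gene on the same strand at 22.2 and 19.9 CPM. LGALS9 shares 294 bases with ENSG00000266728, which at 1.82 and 2.00 CPM was counted more often than LGALS9 itself. CD46 shares 797 bases with MIR29B2CHG on the opposite strand, at 1.55 and 1.23 CPM, which is small beside the level of CD46. The bodies of CD274 and PDCD1LG2 are crossed by the antisense gene ENSG00000286162 (1.13 and 1.33 CPM), with no shared exon bases.

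The other B7 and butyrophilin genes were 16, of which 8 were tested. Of these, 2 were called higher and none lower, beside 13.1% and 5.26% of all genes tested. The higher ones were BTN3A3 (12.0 ± 0.799 against 8.74 ± 1.24 CPM, log2 fold change 0.46) and BTN3A1 (10.7 ± 1.92 against 8.08 ± 1.24 CPM, 0.40), butyrophilins of a family through which gamma delta T cells sense phosphoantigens. NCR3LG1 (B7-H6), a ligand of the natural killer receptor NKp30, had a log2 fold change of 0.22 and BTN3A2 one of 0.42, neither called. With the GC correction 2 of the 8 were called higher and none lower, beside 2.91% and 3.22% of all genes tested. BTN3A3 stood at 0.38 and was still called, whereas BTN3A1, at 0.34, was not. The other was BTNL9, at 0.23, named after its value was seen. The median of the list was 0.20, beside 0.02 over all genes tested, and it was 0.20 after the correction too. CD80, CD86, VTCN1 and HHLA2 had at most 7 reads each over all libraries.

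Among 29 other ligands and enzymes that act on lymphocytes or phagocytes, 21 were tested, and the median was −0.07. Of the 21, 8 were called higher and none lower, beside 13.1% and 5.26% of all genes tested. CD58, the ligand of CD2, had 8.05 ± 0.368 against 5.51 ± 0.975 CPM (log2 fold change 0.55). NECTIN3, a partner of PVR in cell adhesion, had 0.48, B2M, the light chain of MHC class I, 0.38, and ADAM10, a protease that sheds surface proteins, 0.46. These 4 transcripts are between 35.3 and 39.1% GC. After the GC correction none of the 21 was called in either direction, beside 2.91% higher and 3.22% lower among all genes tested. Of 13 costimulatory TNF family genes 4 were tested and none was called. TNFSF9 (4-1BBL) was at −0.16, TNFRSF25 at 0.10 and CD27 at 0.06.

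A list of 16 genes held receptors and other partners of the members, together with other immune and complement receptors. Of these, 5 were tested and none was called. CTLA4, CD28, ICOS, SIRPG, BTLA and CR1 had no reads, and PDCD1, TIGIT, CD96 and CR2 had at most 10 reads over all libraries. SIRPA, the receptor of CD47, was at 30.2 ± 2.57 against 32.8 ± 2.00 CPM (log2 fold change −0.12). THBS1, a secreted ligand of CD47, was at 15.4 ± 1.97 against 13.0 ± 1.94 CPM (0.24). RGMB, which binds PD-L2, was at 30.7 ± 7.24 against 30.1 ± 6.95 CPM (0.03). LAG3, one of the other immune receptors, was at 3.46 ± 0.701 against 3.01 ± 1.24 CPM (0.21).

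Of 16 soluble or other complement regulators, 9 were tested. None was called higher and 1 lower, beside 13.1% and 5.26% of all genes tested. The lower one was CLU (clusterin, which binds the assembling membrane attack complex), at 27.9 ± 1.26 against 33.9 ± 2.09 CPM. Its log2 fold change was −0.28, and −0.29 with the GC correction, under which it was called too. CSMD3 was at 0.20 and SUSD4 at 0.27, neither of them called. Of 32 complement components, 14 were tested, and 1 was called higher and none lower, beside the same shares of all genes. This was C5, at 5.14 ± 1.70 against 3.52 ± 0.56 CPM (log2 fold change 0.54). With the GC correction C5 was at 0.22 and not called. C8G (−0.72), COLEC11 (−0.48) and CFD (−0.32) did not pass. C1QA, C1QB, C1QC, C6, C7 and C8A were among the 8 components with no reads.

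All 31 genes of GPI anchor synthesis, on which CD55 and CD59 depend for their place in the membrane, were tested. Of these 6 were called higher and 5 lower, beside 13.1% and 5.26% of all genes tested, and the median was 0.05. PIGF and PIGK, for ethanolamine phosphate transfer and for the transamidase that attaches the anchor, were higher (0.43 and 0.46), and PIGQ and PGAP3, for the first step and for remodelling of the lipid, were lower (−0.36 and −0.46). PIGF and PIGK are 38.9 and 34.9% GC, and PIGQ and PGAP3 66.5 and 59.9%. Once corrected, none was called higher and 1 lower, beside 2.91% and 3.22% of all genes tested.

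Among 36 genes known to regulate PD-L1 or CD47, 34 were tested, with a median of 0.05. Of the 34, 10 were called higher and 1 lower, beside 13.1% and 5.26% of all genes tested. IFNGR1, a receptor chain for interferon gamma, was at 24.4 ± 3.49 against 16.6 ± 2.03 CPM (log2 fold change 0.55), and HIF1A, the hypoxia factor, at 79.0 ± 6.66 against 54.1 ± 12.8 CPM (0.55). CUL3, the scaffold of a ubiquitin ligase that removes PD-L1, was at 0.51, and BTRC, another ubiquitin ligase subunit, at 0.46. CMTM6, which keeps PD-L1 at the cell surface, was at 0.49 and called higher, with overlapping groups, and was at 0.20 and not called after the GC correction. The gene called lower was STUB1, a ubiquitin ligase, at 211 against 261 CPM (−0.31), and it was at −0.09 and not called after the correction. Both are named after their values were seen. With the GC correction 3 were called higher and 1 lower, beside 2.91% and 3.22% of all genes tested. HIF1A at 0.26 and BTRC at 0.28 were among the higher ones. None of the genes of these lists passed the adjusted p with all libraries. Without vector replicate 2, 32 of the 129 genes of the lists other than the cell type markers that were then tested passed it, 26 higher and 6 lower, which is 24.8% beside 19.1% of all genes.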

How the data were processed

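RNA of 6 HGC-27 libraries was analysed, 3 labelled GC0643 overexpression and 3 vector control. The authors deposited raw read counts per Ensembl gene, made from NEBNext Ultra libraries; the submitters' processing notes name Trimmomatic 0.32, HISAT2 2.1.0, featureCounts 2.0.0 and GRCh38. For tumour RNA-seq with the same tool versions, the study's methods describe counting of uniquely mapped reads on exons of a GENCODE annotation and predicted genes, with reads assigned to every overlapping gene and no strand option; whether this held for the cell line libraries is not given in the sources used here. Unstranded or multiply matched reads can move counts between overlapping genes or copies.

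Genes were filtered by filterByExpr, scaled by TMM and tested with edgeR 4.0.16 (quasi-likelihood, group as the only term, Benjamini-Hochberg over 19528 genes; R 4.3.3). Totals of 20376722 to 24069166 counts gave a biological coefficient of variation of 14.8%. The GC correction subtracted a loess curve (span 0.3, prior count 1) of each library's log2 CPM on transcript GC content. IDs of 58472 genes were matched to GENCODE version 44. Copies were aligned with BLAST+ 2.17.0. Promoters are from RefSeq, GRCh38.p14, with windows matched for 9 of the 10 members.

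The members and the 12 lists were chosen with earlier results of these data known. Beside the members, the genes named are those overlapping them, their near-identical copies, the gene nearest in profile to each, and up to 4 genes per list with the smallest p and a mean over 1 CPM; others are named for counts near 0 or as stated, and 1 gene under this rule is not reported here. Alternatives were the likelihood ratio test, DESeq2 1.42.0, limma voom (limma 3.58.1), DESeq2's size factors, library size alone, other low-count filters, GC or length correction, a replicate block, summed copies and leaving out each library. The code was tested on simulated counts. GC0643 was not analysed here.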

Additional observations from a re-analysis of the deposited data

How the results depend on the processing

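Depth limits CD274, LGALS9, ICOSLG and PDCD1LG2, which rest on 0 to 36 reads per library, and 1 library decided several values. The number of genes past the adjusted p was 16 with the likelihood ratio test, 1 with DESeq2's test, 1 with DESeq2's size factors, 224 with no filter on low counts, 24 with a replicate block and 2 with the block and the GC correction, and 0 to 3813 with 1 library left out, the 3813 without vector replicate 2. Against 482 genes past the fold change of 1.5 and p of 0.05, there were 936 with no filter, 296 with the GC correction, 245 with the block and the GC correction, and 406 to 2141 with 1 library left out. Of these, DESeq2's size factors gave 249 higher and 232 lower, the length correction 233 and 230 and the GC correction 126 and 170, against 312 and 170. Members higher at p 0.05 fell from 3 to 1 with the GC correction and to 0 with the block and GC correction, and were 1 to 4 with 1 library left out, where the shares of all genes tested were 13.1%, 2.91%, 2.01% and 4.14 to 22.8%. Members lower were 1 with no filter, 0 with the block, 0 with the GC correction, 0 with both and 3 with the length correction. They were 0 to 2 with 1 library left out. The shares of all genes were, in the same order, 3.74%, 1.61%, 3.22%, 1.95%, 8.66% and 1.84 to 14.2%. The cause of these changes was not tested.

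The labels give both groups replicate numbers 1 to 3, but same-numbered libraries did not deviate together (correlations −0.21, −0.03 and −0.31), so the block pairs libraries by number alone. Under the replicate block CD274 was at 1.12, CD46 at 0.53 and CD47 at 0.44 and all were still called, while CD276 (−0.27, adjusted p = 0.53) and ICOSLG (−0.66, adjusted p = 0.49) were not.

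Signs changed in these cases. CD55 was at −0.15 with the GC correction, −0.14 with the block added, and −0.10, −0.25, −0.11, −0.12, −0.29 and −0.030 with the correction and 1 library left out, an alternative chosen after seeing the data, as was the GC correction of summed copies. ICOSLG was at 0.042 summed with its copy and at 0.23 with the GC correction too. RGMB, at 0.03, was at −0.00043 with DESeq2's test, −0.0035 with its size factors, −0.086 with the GC correction, −0.072 with the block added, −0.086 with the length correction, and −0.18 to 0.23 with 1 library left out. CSMD3 was at −0.098 with the GC correction, −0.10 with the block added and −0.0026 to 0.31 with 1 library left out. TNFSF9 was at 0.011 with the GC correction, 0.032 with the block added and −0.30 to 0.099 with 1 library left out. With 1 library left out, CD27 was at −0.017 to 0.15, LAG3 at −0.051 to 0.56 and SUSD4 at −0.074 to 0.64. The other 7 tested members kept their sign under all alternatives, 22 to 24 each. CD274 and LGALS9 did not pass the filter of CPM over 1 in 3 libraries and have no value there.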
